A study of Homo sapiens with 43 samples.

Results

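RNA sites recovered with a FLAG antibody from HEK293T cells carrying FLAG-tagged FMR1 or FLAG-tagged DGCR8 were set against sites recovered with the same antibody when no tagged protein was named. The tagged side held 2 libraries, FMR1 FLAG-eCLIP and DGCR8 FLAG-eCLIP. The background side held 3 libraries, called FLAG-only in the labels and cut from gel ranges of 75-150, 100-175 and 125-200 kDa. These 5 libraries were chosen by their titles from 43 samples, 25 of which have peak lists. HEK293T is an established human embryonic kidney line. All 5 libraries used the same FLAG antibody from 1 supplier. The series title places the tags in the cells' own genes by CRISPR/Cas9. The labels do not say whether the tagged cells were 1 clone, nor whether the FLAG-only cells carried any tag. Each protein and each range had 1 library, so no value of a single library has a replicate error. The 3 ranges are 75 kDa wide and overlap one another, and their sizes cover those of the proteins plus the gel region cut above them.

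In eCLIP (enhanced crosslinking and immunoprecipitation), ultraviolet light fixes proteins to the RNA they touch, and the RNA that comes down with an antibody is sequenced beside an input from the same gel region. FMR1 is the RNA-binding translational regulator whose loss causes fragile X syndrome, and it is known to bind many messenger RNAs, largely along their coding sequence. DGCR8 is the partner of the nuclease DROSHA in the Microprocessor, which recognises the hairpins of primary microRNA transcripts in the nucleus. FLAG is a short peptide tag, and RNA that an anti-FLAG antibody recovers without a tagged protein is the assay's background.

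Each list gave a position, a strand, a log2 fold over input and a −log10 p for every called peak. Both values are the authors' own, and they are used here to sort and select the peaks of a list. Peaks enriched 8-fold or more over input (log2 fold of 3) with a −log10 p of 3 or more are called significant below. By this rule 17354 of 100860 FMR1 FLAG peaks (17.2%) and 457 of 25723 DGCR8 FLAG peaks (1.78%) were significant. The FLAG-only ranges had 3508 of 52353 peaks (6.70%) at 75-150 kDa, 3945 of 61312 (6.43%) at 100-175 kDa and 11119 of 50306 (22.1%) at 125-200 kDa. A FLAG-only library thus held more significant peaks than DGCR8 FLAG in each of the 3 ranges, and fewer than FMR1 FLAG. Median log2 folds of the significant peaks were 3.74 in FMR1 FLAG and 3.997 in DGCR8 FLAG, and 3.49, 3.46 and 3.71 in the FLAG-only ranges from low to high. Read totals were not used here, so depth is unknown, and the length of a list limits what it can share. A further 6818 peaks of FMR1 FLAG and 5358 of DGCR8 FLAG passed the fold but not the p. The numbers were 7811, 3064 and 11266 in the FLAG-only ranges from low to high.

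Neighbouring significant peaks lay closer together in the tagged libraries, although DGCR8 FLAG had the shortest list. Of the gaps between successive significant peaks on a strand, 48.4% in FMR1 FLAG and 47.9% in DGCR8 FLAG were under 1 kb. The FLAG-only values were 16.8%, 22.2% and 34.7% from the low to the high range. Significant peaks within 50 nt of each other made 14209 regions in FMR1 FLAG and 375 in DGCR8 FLAG, against 3340, 3585 and 9641 in FLAG-only.

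Most significant FMR1 FLAG peaks lay away from significant FLAG-only peaks, as the plot of peak classes shows. Of the 17354 peaks, 9119 (52.5%) overlapped no called peak in any of the 3 FLAG-only lists. A further 5025 (29.0%) overlapped a called FLAG-only peak that was not significant. The other 3210 peaks, 18.5% (95% Wilson interval 17.9% to 19.1%), were at a significant FLAG-only site, where a site means that the peaks share 1 nt or more of the same strand. These intervals reflect the number of peaks counted and nothing else, and peaks close together may share their RNA molecules. Of these 3210 peaks, 2498 were at a site of 1 range, 612 at sites of 2 ranges and 100 at sites of all 3 ranges. FMR1 FLAG peaks that were not significant were at such sites in 8.30% of cases (8.12% to 8.49%). Only 1 significant FMR1 FLAG peak had a significant FLAG-only peak on the opposite strand.

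Among DGCR8 FLAG peaks the share at background sites was 10.1% (7.63% to 13.2%), or 46 of 457. A called but not significant FLAG-only peak was present at 79 peaks (17.3%), and 332 peaks (72.6%) had none. FLAG-only peaks of either kind were present at 27.4% of the significant DGCR8 FLAG peaks (23.5% to 31.6%). For DGCR8 FLAG peaks that were not significant the share was 35.5% (34.9% to 36.1%). The 46 comprised 25 peaks at a site of 1 range, 11 at sites of 2 ranges and 10 at sites of all 3. DGCR8 FLAG peaks that were not significant were at FLAG-only sites in 7.92% of cases (7.59% to 8.26%), a share inside the interval of the significant ones. The lower share of DGCR8 FLAG than of FMR1 FLAG did not hold with every list cut to its 457 peaks of highest fold, which evens the lengths and raises the fold threshold of the longer lists at once. Then 4.60% of DGCR8 FLAG peaks (3.02% to 6.92%) and 2.41% of FMR1 FLAG peaks (1.35% to 4.26%) were at FLAG-only sites, with intervals that overlap. Without the 125-200 kDa library, the longest of the FLAG-only lists, the shares were 8.55% for FMR1 FLAG and 7.22% for DGCR8 FLAG.

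**Figure D1:**
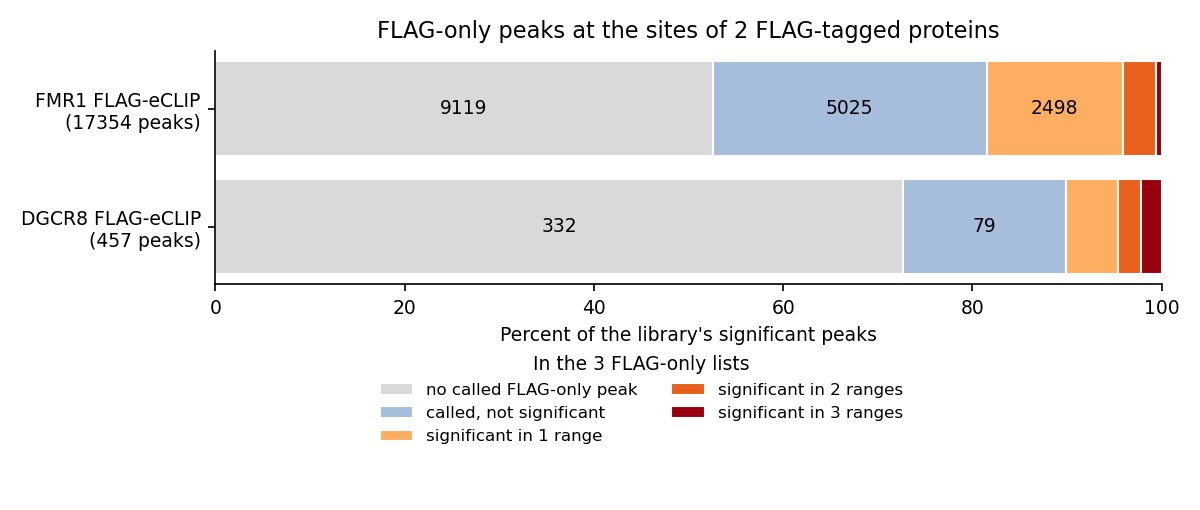
Share of each tagged library's significant peaks (x axis, percent) by what the 3 FLAG-only lists held at the same place and strand; numbers in the bars are peaks. The grey part, with no called FLAG-only peak, makes up 52.5% of FMR1 FLAG and 72.6% of DGCR8 FLAG peaks.

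The share at background sites followed no single direction as the fold increased. In FMR1 FLAG, 19.3% of peaks with a log2 fold of 3 to 4 were at FLAG-only sites, 16.6% of those between 4 and 5, and 20.4% of those at 5 or more. The corresponding DGCR8 FLAG shares were 10.6%, 7.14% and 11.8%. Median log2 folds were 3.72 at FLAG-only sites and 3.75 off them in FMR1 FLAG. In DGCR8 FLAG they were 3.96 at FLAG-only sites and 3.997 off them. Where a protein and a range shared a site, the medians stood side by side as follows. The 751 FMR1 FLAG peaks shared with 75-150 kDa had a median of 3.75, beside 3.39 for the 690 FLAG-only peaks there. The 886 shared with 100-175 kDa had 3.77, beside 3.44 in FLAG-only. The 2385 shared with 125-200 kDa had 3.70, beside 3.74 in FLAG-only. FMR1 FLAG thus had the higher median in the lower and middle ranges. The 14 DGCR8 FLAG peaks shared with 75-150 kDa had a median of 4.58, beside 4.30 for the 13 FLAG-only peaks there. The 31 shared with 100-175 kDa had 4.55, beside 4.76 in FLAG-only, and the 32 shared with 125-200 kDa had 3.68, beside 4.38 in FLAG-only. DGCR8 FLAG thus had the higher median at 75-150 kDa and the lower one in the other ranges. Each library was normalised to its own input, so these folds were not tested against each other.

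The series also holds libraries of the same proteins made with antibodies against the proteins themselves, called native here. In the libraries titled wt the FMR1 antibody gave 3072 significant peaks of 58685 (5.23%) and the DGCR8 antibody 1375 of 33029 (4.16%). They give a readout that neither the tag nor the FLAG antibody enters. Counted over the tagged libraries' peaks, this readout ran in opposite directions for the 2 proteins across the background classes. With 1 library per protein, this difference could not be tested.

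FMR1 FLAG peaks at background sites were found with the FMR1 antibody more often than those elsewhere. Of the 3210 peaks at FLAG-only sites, 651 (20.3%; 18.9% to 21.7%) overlapped a significant peak of the FMR1 antibody, against 1645 of the 14144 peaks off those sites (11.6%; 11.1% to 12.2%). The share was 10.98% with no called FLAG-only peak and 12.8% with one called but not significant. It was 19.5% at sites of 1 range, 22.4% at sites of 2 ranges and 27.0% at sites of all 3. Within each band of fold the order was the same, at 14.9% at FLAG-only sites and 9.23% off them for log2 folds of 3 to 4. The shares were 29.2% and 13.9% for folds of 4 to 5, and 37.7% and 26.9% for folds of 5 or more, again with the FLAG-only sites given before the others.

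A called native peak, significant or not, was itself commoner at these sites. It was present at 65.9% of FMR1 FLAG peaks at FLAG-only sites and at 45.4% of those off them. Among peaks that had one, it was significant for 30.8% (28.9% to 32.8%) at FLAG-only sites and 25.6% (24.5% to 26.7%) off them. Within the peaks off those sites the share was 29.2% (27.7% to 30.7%) with no called FLAG-only peak and 21.5% (20.1% to 23.0%) with one called but not significant. At sites of 1 range it was 30.1% (27.9% to 32.4%), at sites of 2 ranges 32.2% (28.0% to 36.8%) and at sites of all 3 38.0% (27.6% to 49.7%). Among peaks with a called native peak, the intervals at FLAG-only sites and at places with no called FLAG-only peak thus overlapped, and the lowest share lay at the called but not significant ones.

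LIN28 V5, a library of another protein with another tag, in which 10.6% of peaks were significant, shared a significant peak with 7.57% of FMR1 FLAG peaks at FLAG-only sites (6.70% to 8.54%) and with 5.61% of those off them (5.24% to 5.998%). Among peaks with a called LIN28 V5 peak, it was significant for 19.8% (17.7% to 22.1%) at FLAG-only sites and 19.5% (18.3% to 20.7%) off them, a difference within the intervals. V5-only at 125-200 kDa, a background library of another tag, had 11.5% of its peaks significant. It shared a significant peak with 30.0% of FMR1 FLAG peaks at FLAG-only sites (28.4% to 31.6%). Off those sites the share was 2.91% (2.64% to 3.20%). Among peaks with a called V5-only peak, it was significant for 49.6% (47.3% to 51.8%) at FLAG-only sites and 16.8% (15.3% to 18.3%) off them. The part that RNA abundance or ease of calling plays in these shares was not tested.

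DGCR8 FLAG peaks at background sites were found with the DGCR8 antibody less often. Of the 46 peaks at FLAG-only sites, 10 (21.7%; 12.3% to 35.6%) overlapped a significant native peak, against 201 of the 411 off them (48.9%; 44.1% to 53.7%). With no called FLAG-only peak the share was 50.6%, and with one called but not significant it was 41.8%. The classes at significant FLAG-only sites were small, with 6 of 25 peaks found at sites of 1 range, 1 of 11 at sites of 2 and 3 of 10 at sites of all 3. For log2 folds of 5 or more the shares were 46.2% of 13 peaks at FLAG-only sites and 76.3% of 97 peaks off them. A called native peak, significant or not, was present at 63.0% of peaks at FLAG-only sites and 60.3% of those off them. Among peaks that had one, it was significant for 34.5% of 29 at FLAG-only sites (19.9% to 52.7%) and 81.0% of 248 off them (75.7% to 85.4%).

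The LIN28 V5 and FMR1 FLAG libraries ran the opposite way to the DGCR8 antibody. Of the 46 DGCR8 FLAG peaks at FLAG-only sites, 12 (26.1%) were significant in LIN28 V5 and 12 in FMR1 FLAG. Off those sites the shares were 2.19% in LIN28 V5 and 2.68% in FMR1 FLAG. At FLAG-only sites a called peak, significant or not, was present for 63.0% in LIN28 V5 and 69.6% in FMR1 FLAG. Off them a called peak was present for 10.9% in LIN28 V5 and 15.8% in FMR1 FLAG. V5-only at 125-200 kDa shared a significant peak with 50.0% at FLAG-only sites and 0.730% off them. Among DGCR8 FLAG peaks with a called LIN28 V5 peak, it was significant for 12 of 29 at FLAG-only sites (25.5% to 59.3%) and 9 of 45 off them (10.9% to 33.8%), with intervals that overlap. For FMR1 FLAG the numbers were 12 of 32 (22.9% to 54.7%) and 11 of 65 (9.72% to 27.8%), again with intervals that overlap. For V5-only they were 23 of 33 (52.7% to 82.6%) and 3 of 58 (1.77% to 14.1%).

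**Figure D2:**
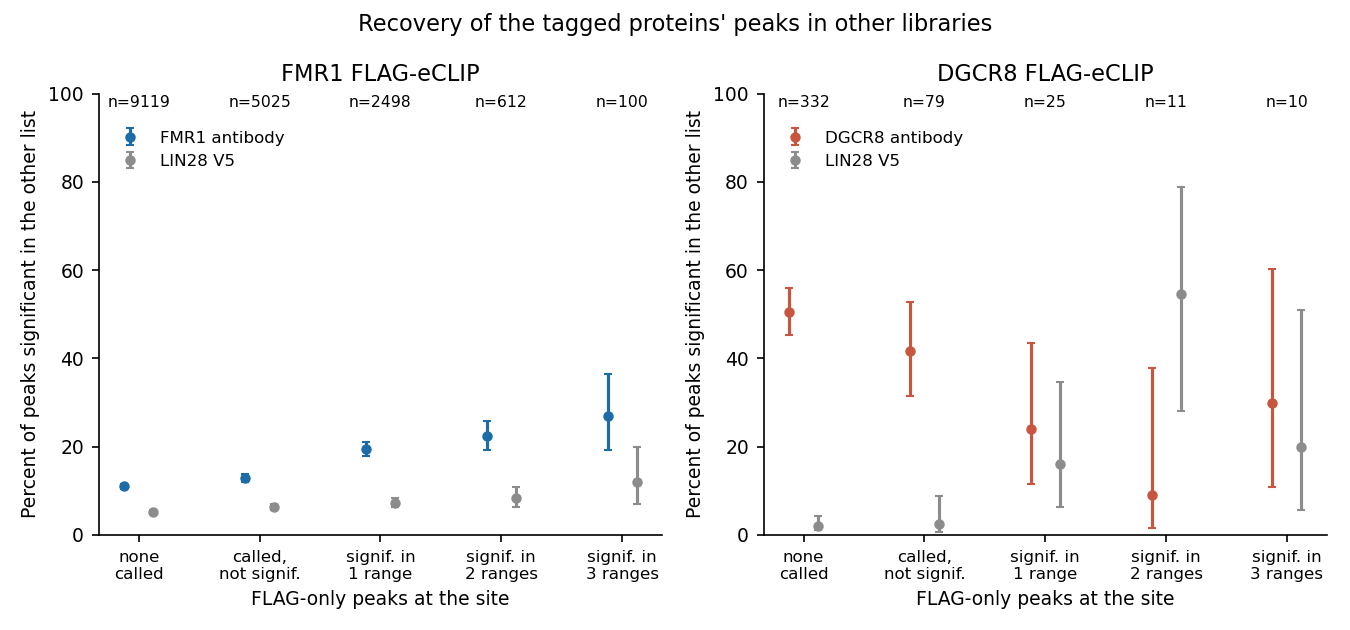
Percent of the significant FMR1 FLAG (left) and DGCR8 FLAG (right) peaks that overlapped a significant peak of another library (y axis), by what the FLAG-only lists held at the site (x axis); bars are 95% Wilson intervals and n is the number of peaks. With the native antibody the FMR1 shares run from 10.98% to 27.0% from left to right, while the DGCR8 shares are 50.6% with no called FLAG-only peak and 30.0% at sites of all 3 ranges.

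Seen from the native antibody, FLAG-only sites were a small part of DGCR8 binding and a larger part of FMR1 binding. Of the 2066 significant FMR1 antibody peaks found again with FLAG, 27.5% were at FLAG-only sites, against 19.1% of the 1006 not found. The DGCR8 antibody had 260 peaks found again with FLAG, of which 3.85% were at FLAG-only sites (2.10% to 6.93%), and 1115 not found, of which 1.08% were (0.617% to 1.87%). Counted over native peaks, both proteins thus had the higher share among the peaks found again. For DGCR8 this rested on 10 peaks found again and 12 not found.

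The regions named next are those of highest fold in each class. They are given by position in the build hg19, counted from 1. Genes are not named, because no annotation of that build was used here. Of the 10 FMR1 FLAG regions of highest fold with no called FLAG-only peak, all had log2 folds between 6.46 and 6.90. Of these, 7 were significant with the FMR1 antibody and 0 were significant in DGCR8 FLAG. The first, chr1:115259862-115259895 (minus strand), had a log2 fold of 6.90 in FMR1 FLAG and 5.86 with the FMR1 antibody. The region chr21:34925699-34926060 (plus) held 5 FMR1 FLAG peaks, the highest at 6.54, and reached 4.40 with the FMR1 antibody. Another pair lay close together on chromosome 17. Of these, chr17:5287686-5287744 (plus) had 6.61 in FMR1 FLAG and no called FMR1 antibody peak, and chr17:5286419-5286524 (plus) had 6.46 in FMR1 FLAG and 3.13 with the FMR1 antibody.

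Of the 14209 FMR1 FLAG regions, 100 were significant in all 3 FLAG-only ranges, and 31 of these were significant with the FMR1 antibody (31.0%; 22.8% to 40.6%). The FMR1 antibody found 9.23% of the 7317 regions with no called FLAG-only peak. All 10 regions of highest FMR1 FLAG fold among the 100 were significant with the FMR1 antibody. Their log2 folds ran from 5.50 to 6.61 in FMR1 FLAG and from 3.06 to 5.83 with the FMR1 antibody. In FLAG-only they ran from 3.07 to 6.24 at 75-150 kDa, 3.15 to 7.32 at 100-175 kDa and 3.12 to 6.03 at 125-200 kDa. The widest, chr2:54857992-54858714 (plus), joined 11 FMR1 FLAG peaks, the highest at 6.10, and reached 5.12 with the FMR1 antibody. Its FLAG-only folds were 4.57, 3.15 and 3.89 from the low to the high range. A second region of the same strand, chr2:54871470-54871720, had 5.74 in FMR1 FLAG and 5.23 with the FMR1 antibody, against 4.19, 3.57 and 5.16 in FLAG-only. Chromosome 13 held 2 more, chr13:98668983-98669105 and chr13:98667980-98668035 (both plus), with 5.97 and 5.60 in FMR1 FLAG. Both libraries of FMR1 and all 3 FLAG-only libraries were thus above the threshold at these places.

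Of the 10 DGCR8 FLAG regions of highest fold with no called FLAG-only peak, 8 were significant with the DGCR8 antibody, which found 45.2% (39.3% to 51.3%) of all 263 such regions. Their log2 folds ran from 6.09 to 7.56 in DGCR8 FLAG, and those of the 9 with a called native peak from 1.65 to 9.78. Of the 10, 6 lay within the stretch of chromosome 13 described below. Of the rest, a peak at chr2:177014834-177014874 (plus) had 6.38 in DGCR8 FLAG and 6.67 with the DGCR8 antibody. One at chr22:42297681-42297725 (plus) had 6.32 in DGCR8 FLAG and 6.22 with the DGCR8 antibody. The strongest of the 10, chr13:92004080-92004143 (plus), had 7.56 in DGCR8 FLAG and no called DGCR8 antibody peak. Outside chromosome 13, the region chr11:32165337-32165357 (minus) was the exception. It had 6.48 in DGCR8 FLAG and 3.02 in FMR1 FLAG, 5.44 with the FMR1 antibody, and 1.65 with the DGCR8 antibody, which was not significant.

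DGCR8 FLAG had 7 regions that were significant in all 3 FLAG-only ranges, and 2 of them were significant with the DGCR8 antibody (28.6%; 8.22% to 64.1%). The FMR1 antibody was significant at 4 of the 7. Of these 7, those shared with FMR1 FLAG are described further on, and the others follow. At chrX:117415458-117415478 (plus) DGCR8 FLAG had 5.92, above the 4.29, 5.73 and 4.74 of the FLAG-only ranges from low to high. The FMR1 antibody reached 4.81 there, and the DGCR8 antibody had no called peak. At chr1:237766450-237766504 (plus) DGCR8 FLAG had 6.13 and FLAG-only 4.21, 5.04 and 6.70. The DGCR8 antibody reached 3.91 there and the FMR1 antibody 3.55, both significant. The other 3 were lower in DGCR8 FLAG than in each range. At chr4:13544064-13544091 (minus) DGCR8 FLAG had 4.58, and the FLAG-only ranges had 5.26, 7.33 and 7.24 from low to high. At chr12:133530947-133531022 (minus) DGCR8 FLAG had 3.68 and FLAG-only 4.49, 6.12 and 6.74. At chr14:103988910-103988943 (minus) DGCR8 FLAG had 3.19 and FLAG-only 3.62, 4.76 and 5.57. The regions on chromosomes 12 and 14 had no called peak in FMR1 FLAG or with either native antibody.

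**Figure D3:**
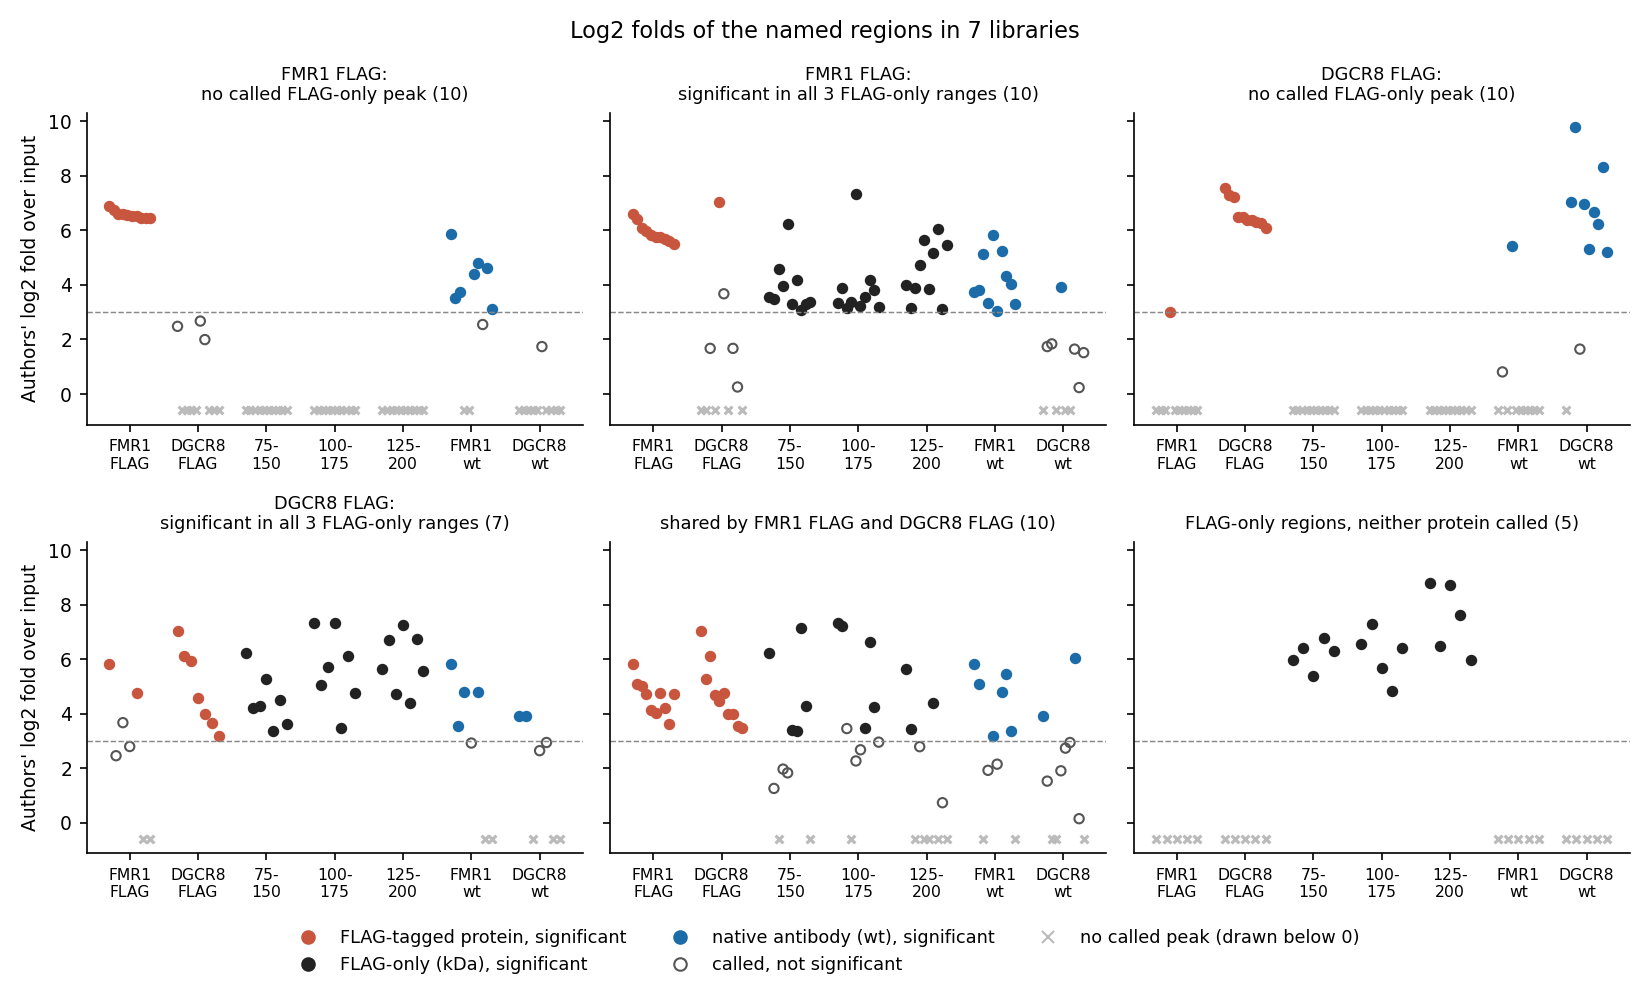
The authors' log2 fold over input (y axis) of each named region in the 2 tagged, 3 FLAG-only (by kDa) and 2 native (wt) libraries; each point is the highest peak of that library in 1 region, open points are not significant and crosses have no called peak. FLAG-only points lie between 3.07 and 7.33 in the 2 panels of regions significant in all 3 ranges, and are absent by choice in the panels with no called FLAG-only peak.

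The densest DGCR8 FLAG signal lay where the FLAG-only lists had no significant peak. This stretch and the other windows of 10 kb were singled out after their values were seen. All 30 DGCR8 FLAG peaks called in the window chr13:92000001-92010000 (plus) were significant. They ran over 2189 nt, from 92002586 to 92004774, with log2 folds from 5.48 to 8.81 and a median of 6.86. The DGCR8 antibody had 33 called peaks in the window, all significant, with a median of 7.01 and a highest fold of 11.74, and 20 of the 30 DGCR8 FLAG peaks overlapped one. FMR1 FLAG had 7 called peaks there and FLAG-only 4, 8 and 6 from the low to the high range, none of them significant. The highest folds were 2.80 in FMR1 FLAG and 2.26, 2.87 and 2.57 in FLAG-only. Leaving these 30 peaks out, 10.8% of DGCR8 FLAG peaks were at FLAG-only sites, a setting added after the data were seen.

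**Figure D4:**
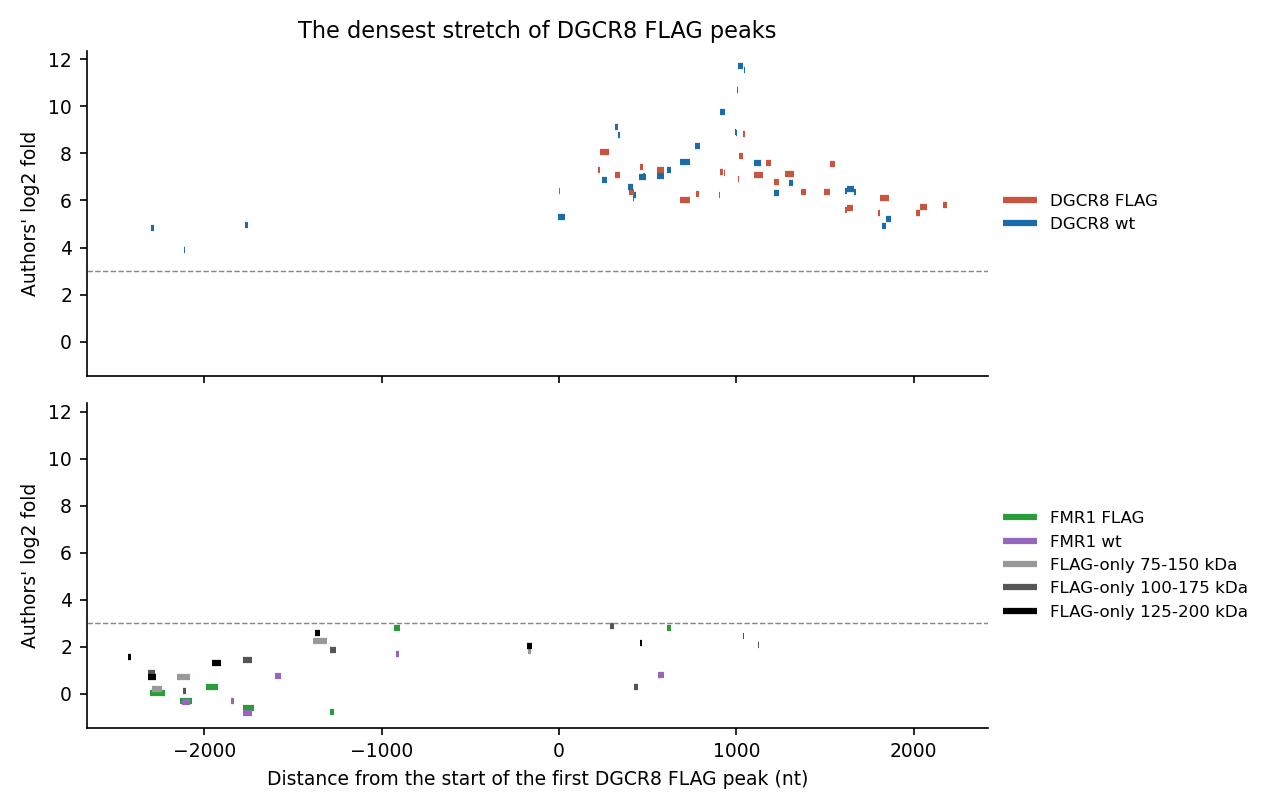
Called peaks in the densest window of DGCR8 FLAG (horizontal bars spanning each peak), by distance in nt from the start of the first DGCR8 FLAG peak (x axis) and the authors' log2 fold (y axis). DGCR8 FLAG and DGCR8 antibody peaks (upper panel) all lie above the dashed threshold of 3, and FMR1 and FLAG-only peaks (lower panel) all lie below it.

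FLAG-only peaks also lay in dense windows, although their share over all windows was not measured. Whether dense windows held them more often than other windows therefore cannot be said. Of the 21 windows with at least 5 significant DGCR8 FLAG peaks, the chromosome 13 window included, 8 held a significant FLAG-only peak (38.1%) and all 21 held a significant peak of the DGCR8 antibody. Of 292 windows with at least 10 FMR1 FLAG peaks, 220 held a FLAG-only peak (75.3%) and 240 a peak of the FMR1 antibody. The densest FMR1 FLAG window, chr3:184040001-184050000 (plus), had 52 significant FMR1 FLAG peaks. It had 17 peaks of the FMR1 antibody and 2, 0 and 16 FLAG-only peaks from the low to the high range. The window chr5:112350001-112360000 (plus) had 40 FMR1 FLAG and 18 FMR1 antibody peaks, and 0 FLAG-only peaks in each range.

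FMR1 FLAG and DGCR8 FLAG had 18 regions in common, made of 25 FMR1 FLAG and 23 DGCR8 FLAG peaks. Those are 0.144% of the FMR1 FLAG and 5.03% of the DGCR8 FLAG significant peaks. Of the 18, 15 had a called FLAG-only peak, 9 were significant in at least 1 FLAG-only range and 2 in all 3. Over all regions, 18.9% of FMR1 FLAG and 10.4% of DGCR8 FLAG regions were significant in at least 1 range. All 3 ranges were significant at 0.704% and 1.87% of them, and 51.5% and 70.1% had no called FLAG-only peak. The FMR1 antibody found 8 of the 18 and the DGCR8 antibody 3. Over all regions, the FMR1 antibody found 12.5% of those of FMR1 FLAG and the DGCR8 antibody 41.6% of those of DGCR8 FLAG. The region of highest fold in both, chr6:31958261-31958281 (plus), was significant in all 7 lists. Its log2 folds were 5.83 in FMR1 FLAG and 7.03 in DGCR8 FLAG, 5.83 with the FMR1 antibody, 3.91 with the DGCR8 antibody, and 6.24, 7.32 and 5.66 in FLAG-only from the low to the high range. The other region significant in all 3 ranges, chr1:91853046-91853087 (minus), had 4.76 in FMR1 FLAG and 3.997 in DGCR8 FLAG. Its FLAG-only folds were 3.37, 3.48 and 4.38.

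The region chr17:18965407-18965447 (plus) had 4.22 in FMR1 FLAG and 3.997 in DGCR8 FLAG. It had 7.16 at 75-150 kDa and 6.63 at 100-175 kDa in FLAG-only, and no called peak at 125-200 kDa. In the mitochondrial genome, at chrM:5826-5857 (minus), FMR1 FLAG had 3.61 and DGCR8 FLAG 3.56, against 4.30, 4.26 and 0.74 in FLAG-only, the last not significant. FLAG-only signal at both places thus differed between overlapping gel ranges. With the native antibodies the chromosome 17 region had 5.47 for FMR1 and 6.03 for DGCR8, both significant. The mitochondrial region had 3.355 for FMR1, which was significant, and 0.156 for DGCR8, which was not.

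In the opposite direction, 19.97% of the FLAG-only significant peaks of the 3 ranges (19.4% to 20.6%) were at a significant FMR1 FLAG site, and 0.447% (0.361% to 0.554%) at a DGCR8 FLAG site. The order of these shares goes with the lengths of the protein lists, 17354 and 457 peaks, and it turned with every list cut to its 457 peaks of highest fold, at 1.17% for FMR1 FLAG and 2.85% for DGCR8 FLAG. By range, from 75-150 to 125-200 kDa, the FMR1 FLAG shares were 19.7%, 20.8% and 19.8%, and the DGCR8 FLAG shares 0.371%, 0.837% and 0.333%. The FLAG-only ranges shared sites with one another as well. Of the 75-150 kDa peaks, 17.6% were significant at 100-175 kDa and 34.4% at 125-200 kDa. Of the 125-200 kDa peaks, 11.5% were significant at 75-150 kDa and 14.4% at 100-175 kDa.

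A higher share in the ranges near the proteins' own size than in the other 4 FLAG-only ranges was not detected. The other ranges had 1.21% (25-100 kDa), 3.75% (50-125 kDa), 11.5% (150-225 kDa) and 6.86% (175-250 kDa) of their peaks significant. The share of FLAG-only peaks at FMR1 FLAG sites averaged 20.1% ± 0.635 in the near-size ranges (SD, n = 3) and 21.5% ± 1.14 in the others (n = 4), a difference of -1.37 percentage points. An exact one-sided permutation test for a higher share near the protein's size gave p = 0.971. For DGCR8 FLAG the shares were 0.513% ± 0.281 and 0.549% ± 0.253 in the same order, with a difference of -0.0360 points and p = 0.714 by the same exact test. Both adjusted values over the 2 tests were 0.971 (Benjamini-Hochberg), and 35 arrangements allow no p below 0.0286. Measured as the share of the protein's own peaks, both differences turned positive, to 3.25 points for FMR1 FLAG and 1.79 points for DGCR8 FLAG (p = 0.171 for each by the same exact test). For DGCR8 FLAG the sign also turned with FLAG-only lists of equal length, and without the 75-150, the 125-200 or the 175-250 kDa library, so its direction is not settled here. Neighbouring ranges share material and nothing in the labels says that they came from separate cultures, so the spread may be technical. The SDs and p-values treat overlapping ranges as independent, which they are not, so the test cannot decide the question.

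**Figure D5:**
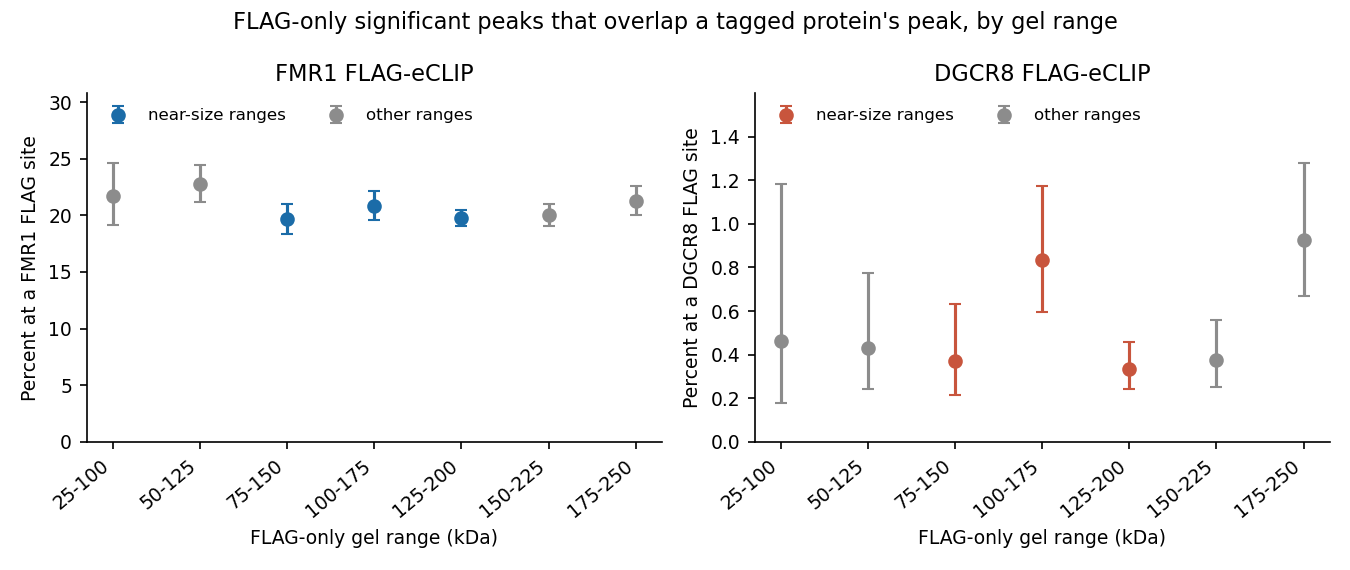
Percent of each FLAG-only range's significant peaks at a significant FMR1 FLAG (left) or DGCR8 FLAG (right) peak, by gel range in kDa (x axis); bars are 95% Wilson intervals and coloured points are the near-size ranges. All 7 FMR1 shares lie between 19.7% and 22.8%, and all 7 DGCR8 shares between 0.333% and 0.926%.

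Joined across the 3 ranges, FLAG-only peaks made 13382 regions. Of these, 20.01% held an FMR1 FLAG peak and 0.291% a DGCR8 FLAG peak. Among the 462 regions significant in all 3 ranges the shares were 33.8% for FMR1 FLAG and 1.52% for DGCR8 FLAG. No called peak of either protein was present in 4981 of the 13382 regions (37.2%), and in 138 of those significant in all 3 ranges. The strongest of the 138 by mean fold was chr4:151172698-151173118 (plus), with 13 FLAG-only peaks and log2 folds of 5.98, 6.56 and 8.78 from the low to the high range. The next, chr9:139422773-139423171 (minus), had 6.39, 7.27 and 6.48. The 5 strongest such regions had no called peak with either native antibody. FLAG-only folds reached 8.78 at these places, which were chosen for having no called peak in either tagged library and ranked by FLAG-only fold.

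The mitochondrial genome and chromosome 19 were represented unequally. Significant peaks on the mitochondrial genome numbered 1 in FMR1 FLAG and 4 in DGCR8 FLAG, against 7, 11 and 44 in FLAG-only from the low to the high range. As shares of each list's significant peaks these were 0.00576% and 0.875% (0.341% to 2.23%), against 0.200%, 0.279% and 0.396%. Among all called peaks the mitochondrial shares were 0.179% in FMR1 FLAG and 0.517% in DGCR8 FLAG, against 0.458%, 0.481% and 0.475% in FLAG-only. Chromosome 19 held 1.85% of the significant FMR1 FLAG peaks (1.66% to 2.06%) and 8.75% of those of DGCR8 FLAG (6.49% to 11.7%), against 3.62%, 2.48% and 3.87% in FLAG-only. The native antibodies ran alike, with 0.977% of significant peaks on chromosome 19 for FMR1 and 9.53% for DGCR8. Of all called peaks, chromosome 19 held 5.397% in FMR1 FLAG and 7.18% in DGCR8 FLAG, against 5.63%, 5.64% and 5.49% in FLAG-only.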

How the data were processed

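The authors deposited 1 list of called peaks per eCLIP library, without a header. Column 4 of the deposited lists was read as −log10 p and column 5 as log2 fold over the size-matched input, both the authors' values. Positions are in hg19, and the tools named are STAR, cutadapt, SAMtools, Picard and GATK with no version, per the submitters' processing notes. The peak caller and its settings are not given there. Peaks were called per library. The −log10 p values stop at a cap of 400, which 4 significant FMR1 FLAG peaks reached. The value 15.6576 also recurs, at 701 significant peaks of FMR1 FLAG and 264 of the DGCR8 antibody. It therefore does not order those peaks. Log2 folds recur as well. The commonest was 1.80 in FMR1 FLAG (7945 called peaks) and 3.26 in DGCR8 FLAG (4218). In FLAG-only it was 3.07 (5010), 2.46 (6053) and 3.16 (6602) from the low to the high range. Ranks and medians of fold can thus rest on ties.

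From these lists, peaks with both values of at least 3 were taken as significant and compared by shared position (1 nt or more, strands kept apart), with 95% Wilson intervals. Regions join significant peaks within 50 nt. Named regions were the 10 of highest fold for each protein with no called FLAG-only peak, the 10 of highest fold significant in all 3 ranges (7 existed for DGCR8), the 10 shared by both proteins of highest lower fold, and the 5 FLAG-only regions of highest mean fold without either protein. Near-size and other ranges were compared by an exact permutation test, which treats the overlapping ranges as independent. The overlap and test code was tested on simulated data. Python 3.11.15, pandas 2.3.3, NumPy 2.4.6, SciPy 1.17.1 and matplotlib 3.10.9 were used. The libraries, lists and rules were chosen with earlier results of these data known. Gene lists chosen for FMR1 and DGCR8 targets were not used, since no hg19 annotation was at hand. Inputs entered only through the authors' folds. No 2 lists held identical values.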

Additional observations from a re-analysis of the deposited data

Results flagged for a closer look

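Counted over the tagged libraries' peaks, recovery by the native antibody differed in direction between FMR1 and DGCR8. The difference between peaks at FLAG-only sites and peaks off them was 8.65 percentage points for FMR1 FLAG and -27.2 percentage points for DGCR8 FLAG. The difference between the proteins was not tested, since each has 1 library. Counted over the native antibodies' peaks, both proteins ran the same way, with the higher share at FLAG-only sites among peaks found again. Among the 6 sets of 7 FLAG-only values examined for a value far from the rest, 0 had one, where chance gives about 1 in 20.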

How the results depend on the processing

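No paired analysis was possible because each protein and each range has 1 library. The share of FMR1 FLAG peaks at FLAG-only sites (18.5%) was 16.0% at a −log10 p of at least 5, 28.9% at a log2 fold of at least 2, 10.7% when 50% of both peaks had to overlap and 38.8% within 1 kb. It was 24.0% with all 7 FLAG-only ranges, 9.46% with the 3 V5-only libraries, 2.41% with lists of equal length and 47.5% with any called FLAG-only peak. Leaving out 1 range gave 8.55% to 16.4%, the lowest without 125-200 kDa. For DGCR8 FLAG (10.1%) the moved values were 18.4% at the lower fold, 7.22% with 50% overlap, 19.5% within 1 kb, 6.57% with V5-only, 4.60% with equal lists and 27.4% with any called peak. Leaving out 1 range gave 7.22% to 9.85%.

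The FLAG-only share at FMR1 FLAG sites (19.97%) was 21.5% at the stricter p, 33.8% at the lower fold, 11.96% with 50% overlap, 36.0% within 1 kb, 20.6% over merged regions, 17.6% with V5-only, 1.17% with equal lists and 9.01% for any called peak. Leaving out 1 range gave 19.7% to 20.3%. The share at DGCR8 FLAG sites (0.447%) was 0.791% at the lower fold, 0.307% with 50% overlap, 0.969% within 1 kb, 0.663% with V5-only, 2.85% with equal lists and 0.145% for any called peak. Leaving out 1 range gave 0.342% to 0.617%. Equal lists, which raise the fold threshold of the longer ones too, turned the order of the proteins in both kinds of share.

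The native recovery at minus off FLAG-only sites stayed positive for FMR1 FLAG (8.65 points) under all 13 alternatives. It was 14.7 at the lower fold, 19.2 within 1 kb, 10.9 over merged regions, 10.5 with V5-only, 4.75 with any called peak and 5.20 among peaks with a called native peak. Leaving out 1 range gave 6.69 to 9.34. For DGCR8 FLAG (-27.2 points) it stayed negative under all 14, at -50.1 for the stricter p and -46.6 among peaks with a called native peak, and -31.4 to -23.6 without 1 range. With equal lists it rested on 11 FMR1 FLAG and 21 DGCR8 FLAG peaks at FLAG-only sites, and both intervals of the difference include 0. The restriction to called native peaks was chosen after seeing the data.

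The near-size difference turned to 3.25 points for FMR1 FLAG and 1.79 for DGCR8 FLAG when measured as the share of the protein's peaks (exact p = 0.171 for both). For DGCR8 FLAG it was 0.289 points with FLAG-only lists of equal length, and ran from -0.198 to 0.0895 without 1 range, turning positive without 75-150, 125-200 or 175-250 kDa (0.0354, 0.0543 and 0.0895). For FMR1 FLAG it ran from -1.85 to -0.935 without 1 range. The causes of these shifts were not tested, beyond the shorter lists and wider overlaps that the alternatives set. List lengths and unknown read depth limit every share.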
